A study of Mus musculus with 10 samples.

Results

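The genes of the nuclear pore and of the receptors that carry cargo through it were compared between activated B cells with and without the transcription factor Irf4. The set was chosen by gene symbol and holds 46 genes, of which 24 are nucleoporins, 18 are importins or exportins and 4 belong to the Ran cycle. The platform annotation gave a probe set to 43 of them, and 3 (Nup35, Tpr and Nutf2) are not named in it. All 43 were bright enough to be tested, out of 12095 genes tested in all. The genes were listed by name with earlier results of these data known. Each is represented by its brightest probe set, by the mean of all 10 arrays.

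Splenic B cells came from C57BL/6 littermates aged 12 weeks that carried either intact Irf4 alleles (irf4+/+, titled WT) or disrupted ones (irf4-/-). Non-B cells had been depleted magnetically, and the remainder was kept for 3 days in medium with serum, IL-4 at 20 ng/ml and an antibody to CD40, labelled as 1 mg/ml. Each genotype has 5 arrays, and the labels name neither separate mice nor separate cultures behind them. The p-values therefore rest on the spread among 5 arrays a genotype, and part of that spread may be technical. Signal is the deposited linear intensity of a probe set, a log2 fold change is Irf4-/- against Irf4+/+ on the log2(signal + 7.9) scale, and a gene was called when its adjusted p in limma, over all 12095 genes, was under 0.05.

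Nuclear pores are channels through the nuclear envelope that are built from many copies of the nucleoporins. A scaffold of Y-shaped complexes and an inner ring holds nucleoporins with disordered phenylalanine-glycine repeats, and these fill the channel and bind transport receptors. Importins and exportins bind their cargo directly or through the importin alpha adaptors, and the small GTPase Ran, kept in its GTP form inside the nucleus, loads and unloads them. Lymphocytes that leave quiescence enlarge their nuclei and build new pores as they grow and divide.

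The disrupted gene was still measured: Irf4 gave 3898.9, 3745.1, 3757.6, 3978.4 and 3426.4 on the Irf4+/+ arrays and 2821.4, 2988.7, 2765.9, 2638.2 and 2747.9 on the Irf4-/- arrays (log2 fold change -0.43, SE 0.0536, adjusted p = 5.03e-06 in limma). No source used here places its probe set relative to the disrupted part, so the value is no check of the genotype. Of the B cell markers 7 of 7 passed the filter and rose in Irf4-/- samples (summed signal 20341 to 22888 in Irf4+/+ and 38192 to 42918 in Irf4-/-). Natural killer markers rose as well, 6 of 6 (summed signal 878 to 1114 and 6998 to 10347). So did 2 of 4 macrophage markers past the filter (261.6 to 359.4 and 893.3 to 1062) and 2 of 4 granulocyte markers (61.9 to 119.5 and 393.4 to 697). The others past it, Csf1r and Fcgr1 (macrophage) and Mpo and Elane (granulocyte), were not called. Cd14, Itgam and Mertk (macrophage) and Camp (granulocyte) lay under the filter. Of 3 dendritic cell markers past the filter Itgax (2.23-fold) and Zbtb46 (1.30-fold) rose and Batf3 fell (1.55-fold). Their summed signal was 562.8 to 660.4 and 592.9 to 692.7. Siglech and Xcr1 lay under the filter. The T cell genes Cd3e, Cd3d, Cd3g, Cd4 and Cd8b1 lay under the filter, with means between 5.54 and 11.98, while Cd8a passed it (81.9 in Irf4+/+ and 77.2 in Irf4-/-, not called). The array's probe set for 18S ribosomal RNA averaged 69.0 ± 20.2 on the Irf4+/+ arrays and 207.1 ± 66.1 on the Irf4-/- arrays (SD, n = 5, exact two-sided permutation p = 0.00794, the smallest 5 against 5 can give). The part of these markers and of the control in the results was not tested.

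Most transcripts of the pore and its receptors were lower without Irf4. Of the 43 genes tested 31 fell, 0 rose and 12 were not called, where 24.2% of all genes were called lower and 23.6% higher (47.8% in either direction). Without Irf4+/+ replicate 1, Irf4-/- replicate 3 or Irf4-/- replicate 4, 1 gene (Nup62) was called higher. Before adjustment, 32 had a p under 0.05 with a lower value and 1 (Nup62) with a higher value. The differences were modest in size: the median log2 fold change was -0.34, or 1.26-fold lower, where the median of all genes was 0.00. A fall of at least 1.5-fold was seen for 5 of the 43 (11.6%), near the 8.47% of all genes tested, namely Ipo4 (2.05-fold), Xpot (1.79-fold), Nup133 (1.69-fold), Rcc1 (1.66-fold) and Nup107 (1.58-fold). For 23 of the 43 genes (53.5%), every Irf4-/- array lay below every Irf4+/+ array, which held for 18.6% of all genes. These shares of all genes include dimmer genes, as all 43 also passed a filter at the 60th percentile. With that filter 5437 of 9060 genes were called in either direction. In bulk RNA, fewer cells of a type and less RNA per cell cannot be told apart. The median SD within a genotype was 0.10 (Irf4+/+) and 0.11 (Irf4-/-) on the log2 scale over the set, against 0.17 and 0.16 over all genes. All genes include dimmer ones, and the medians were not matched for signal.

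**Figure D1:**
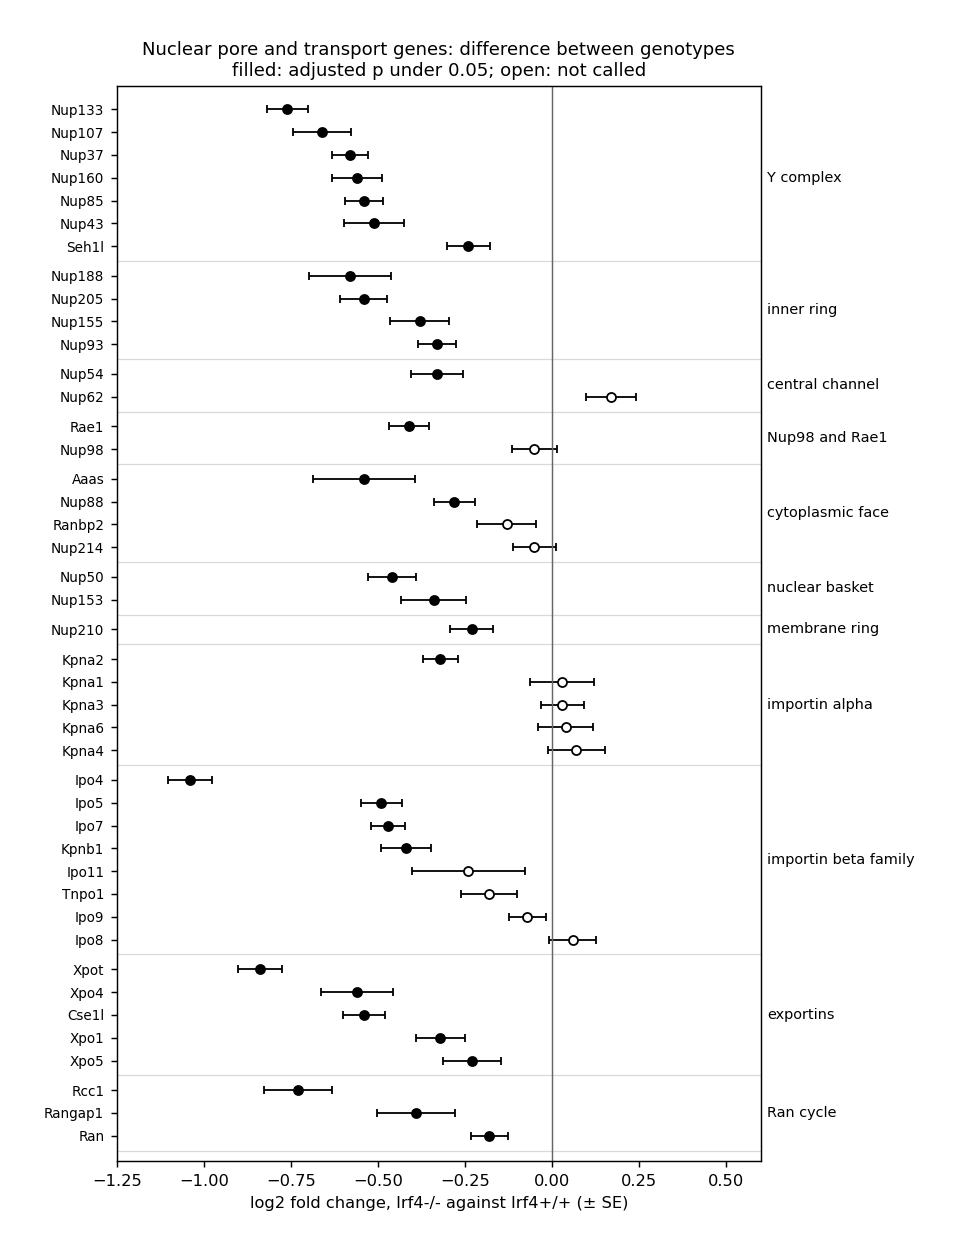
Log2 fold change (x axis) of each of the 43 genes tested, grouped by its place in the pore or its class of receptor, with bars for the standard error and filled points for adjusted p under 0.05. All 31 filled points lie left of 0, from -1.04 (Ipo4) to -0.18 (Ran), and 4 of the 5 importin alpha genes are open points close to 0.

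The share of genes that fell was higher among the nucleoporins than among the receptors, a difference that was not tested. Of 22 nucleoporins 18 fell (81.8%), with a median log2 fold change of -0.40, and of 18 importins and exportins 10 fell (55.6%), with a median of -0.28. All 3 measured genes of the Ran cycle fell, with a median of -0.39. The share called lower over all genes was 24.2%. Array by array, the median nucleoporin lay between -0.42 and -0.39 on the Irf4-/- arrays, as a log2 difference from its Irf4+/+ mean, and between -0.04 and 0.04 on the Irf4+/+ arrays. The median importin or exportin lay between -0.39 and -0.27 on the Irf4-/- arrays and between -0.08 and 0.09 on the Irf4+/+ arrays. Within the set, the largest single falls were those of receptors (Ipo4 and Xpot), and the receptors also ranged more widely, from -1.04 to 0.07, than the nucleoporins, from -0.76 to 0.17.

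**Figure D2:**
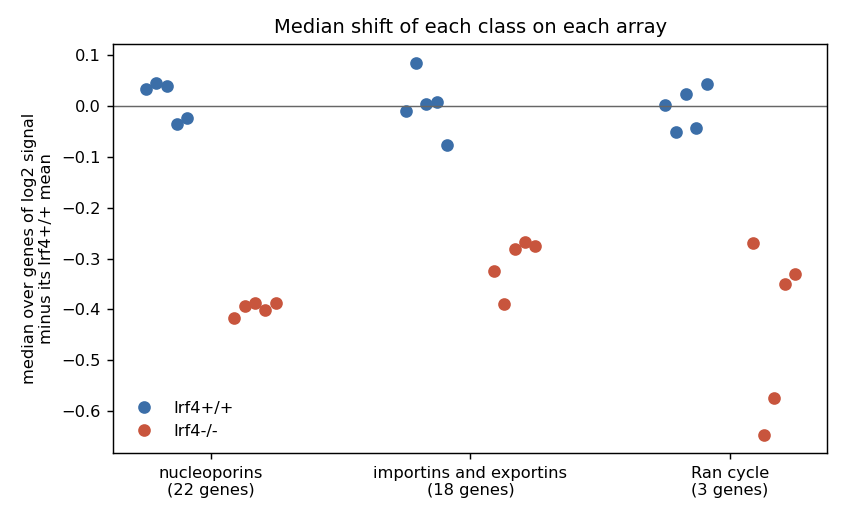
Median over the genes of a class (y axis) of the log2 signal minus that gene's Irf4+/+ mean, with a point for each array and 5 arrays per genotype. Nucleoporins on Irf4-/- arrays lie within -0.42 to -0.39, and the 3 genes of the Ran cycle spread from -0.65 to -0.27.

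Promoter sequence was available from RefSeq (GRCm38.p6) for 35 of the 43 tested genes, as windows from 250 bases before to 50 bases after each annotated start. The letters CACGTG, the E-box bound by MYC and related factors, occurred in 7 of the 29 windows of genes that fell (24.1%) and in 1 of the 12 windows of genes that were not called (8.33%), against 9.76% of the 12530 windows of all genes tested. The site of the nuclear respiratory factor NRF1, GCGC on either side of AT, occurred in 4 of the 29 and 1 of the 12 windows, against 2.02%. Both motifs read the same on either strand. Letters of elements that IRF proteins bind, searched on both strands, were in 0 of the 44 windows of listed genes: GAAA, any 2 bases and GAAA are in 3.02% of the windows of all genes tested, GGAA, any 2 bases and GAAA in 2.39%, and GAAA followed by TGANTCA in 0.0878%. These 3 patterns can overlap one another. A match is a string of letters, not a measured binding site.

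The 250 bases before the start are shown for 3 genes that fell and hold an E-box (Nup188, Ipo7 and Xpot), for a gene that fell and a gene that did not with an NRF1 site (Nup107 and Nup62), and for Ipo8, the paralogue of Ipo7, which was not called. They run 5′ to 3′ on the strand of the gene, and capitals mark the E-box or the NRF1 site.
Nup188 (chr2:30286166-30286415, plus strand): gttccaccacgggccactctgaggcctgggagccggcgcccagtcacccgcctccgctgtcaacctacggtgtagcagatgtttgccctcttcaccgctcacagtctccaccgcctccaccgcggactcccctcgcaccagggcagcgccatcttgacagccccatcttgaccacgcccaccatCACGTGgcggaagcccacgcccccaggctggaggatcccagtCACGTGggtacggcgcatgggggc
Ipo7 (chr7:110018065-110018314, plus strand): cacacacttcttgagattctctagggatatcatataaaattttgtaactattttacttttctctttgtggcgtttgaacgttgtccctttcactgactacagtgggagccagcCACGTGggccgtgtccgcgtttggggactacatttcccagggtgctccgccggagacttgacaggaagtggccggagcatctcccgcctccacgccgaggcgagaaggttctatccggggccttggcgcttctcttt
Xpot (chr10:121626333-121626582, minus strand): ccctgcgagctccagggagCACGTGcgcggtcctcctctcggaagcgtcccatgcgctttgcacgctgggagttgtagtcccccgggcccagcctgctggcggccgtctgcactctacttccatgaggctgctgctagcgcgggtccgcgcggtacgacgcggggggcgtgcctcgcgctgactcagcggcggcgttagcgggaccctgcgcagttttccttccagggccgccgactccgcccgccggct
Nup107 (chr10:117792706-117792955, minus strand): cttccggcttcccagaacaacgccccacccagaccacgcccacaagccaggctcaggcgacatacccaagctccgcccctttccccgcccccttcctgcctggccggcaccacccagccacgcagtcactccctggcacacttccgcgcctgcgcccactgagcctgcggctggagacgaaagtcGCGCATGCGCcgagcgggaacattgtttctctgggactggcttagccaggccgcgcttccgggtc
Nup62 (chr7:44815838-44816087, plus strand): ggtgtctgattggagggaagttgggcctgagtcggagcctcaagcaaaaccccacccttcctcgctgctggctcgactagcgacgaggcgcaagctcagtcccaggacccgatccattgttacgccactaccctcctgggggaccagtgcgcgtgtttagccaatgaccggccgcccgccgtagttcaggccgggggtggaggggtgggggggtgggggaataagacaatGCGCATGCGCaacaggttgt
Ipo8 (chr6:148831468-148831717, minus strand): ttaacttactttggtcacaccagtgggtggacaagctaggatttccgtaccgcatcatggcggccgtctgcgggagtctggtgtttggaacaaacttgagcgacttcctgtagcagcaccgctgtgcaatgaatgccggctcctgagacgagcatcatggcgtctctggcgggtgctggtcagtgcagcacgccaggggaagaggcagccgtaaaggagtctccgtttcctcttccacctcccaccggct
Nup188 holds a pair of E-boxes, which begin 66 and 24 bases before the start, that of Ipo7 begins 137 and that of Xpot 231 bases before it. The NRF1 sites begin 65 bases (Nup107) and 20 bases (Nup62) before the start, so this site stood before a gene that fell and before a gene that was not called lower. The Ipo8 window holds none of the 5 patterns. Ipo4, the gene with the largest fall, has its E-box 14 bases after the start and is not printed. Nor is Ranbp2, which was not called and has an E-box that begins 87 bases before the start.

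The Y complex, the outer scaffold of the pore that also seeds new pores on chromatin after mitosis, was represented by 7 listed genes. These 7 all fell without overlap between the genotypes. Of all genes tested, 24.2% were called lower, and 18.6% had every Irf4-/- array below every Irf4+/+ array. A further subunit is encoded by Nup98, which was not called. Nup133, which anchors the stem of the complex, gave 1003.5, 961.4, 1008.5, 1000.5 and 872.4 on the Irf4+/+ arrays and 562.8, 559.5, 570, 571.7 and 582.1 on the Irf4-/- arrays. The Irf4-/- arrays lie close together, all below the lowest Irf4+/+ array (log2 fold change -0.76, SE 0.0587, adjusted p = 2.02e-08). Nup107, its partner in the stem, gave 920.1, 1062.1, 989.5, 838.5 and 935.7 against 593.2, 662.7, 538.2, 530.3 and 675.7 (log2 fold change -0.66, SE 0.0828, adjusted p = 5.37e-06). Here the arrays of both genotypes scatter more, and still none overlap.

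The arms of the Y carried falls of like size. Nup37, a small propeller protein of the arm, fell 1.49-fold, from 1306 ± 53.4 to 870.6 ± 16.7 (SD, n = 5 arrays per genotype), and Nup160, which it binds, fell from 1612 ± 121 to 1095 ± 101 (1.47-fold). Nup85 fell 1.45-fold and Nup43 1.42-fold. Seh1l, which serves in the pore and also in a nutrient-sensing complex on lysosomes, had the smallest fall of the Y complex on its brightest probe set, 1.18-fold from 1021 ± 70.9 to 862.2 ± 43.2. The adjusted p was 0.0043 for Seh1l and at most 0.000123 for the other 6 genes. With the mean of their probe sets Nup133 and Nup160 had log2 fold changes of -0.35 and -0.30, and without probe sets shared between transcripts Seh1l had -0.49, all still called.

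The inner ring, which lines the channel and ties the scaffold to the membrane, fell in 4 of 4 measured genes. The share called lower over all genes was 24.2%. Nup188 gave 303.2, 287.4, 442.2, 371.1 and 390.1 in Irf4+/+ and 232.3, 289.7, 207.4, 218.3 and 232.8 in Irf4-/- samples, 1.49-fold lower (adjusted p = 0.000687). An Irf4-/- array (289.7) lay above the lowest Irf4+/+ array (287.4), so the genotypes touch. Its large partner Nup205 fell 1.45-fold from 2313 ± 259 to 1584 ± 27.6, with no overlap. Nup155 gave 878.7, 1039.1, 923.4, 902.9 and 914.6 against 660.9, 670.3, 687.7, 909.7 and 663.9, a fall of 1.30-fold (adjusted p = 0.00148) in which Irf4-/- replicate 4 alone reached the Irf4+/+ level. Nup93, which recruits Nup62 and its partners to the channel, fell 1.25-fold from 1085 ± 41.1 to 863.4 ± 37.4 (adjusted p = 0.000113) and did not overlap.

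The channel, the Nup98 pair and the cytoplasmic face held the 4 nucleoporins that were not called. Nup62, the central repeat protein of the channel, gave 8459.4, 7765.9, 7147.2, 7538.3 and 6814.8 in Irf4+/+ and 9303.3, 8760.6, 7911.9, 7412.6 and 9214.3 in Irf4-/- samples. The genotypes overlap on this probe set (log2 fold change 0.17, SE 0.0714, adjusted p = 0.0564). On the same probe set Nup62 was called higher without Irf4+/+ replicate 1 (adjusted p = 0.0205), Irf4-/- replicate 3 (0.0465) or Irf4-/- replicate 4 (0.00966). Its next 3 probe sets by brightness were called higher, each by 1.35-fold to 1.37-fold, among them a set with 2839 ± 130 in Irf4+/+ and 3900 ± 180 in Irf4-/- samples (adjusted p = 2.45e-06 over probe sets). In the RefSeq gene table Nup62 overlaps Atf5 and Il4i1b. Atf5, a stress-response transcription factor, rose 2.32-fold from 409.1 ± 102 to 939.9 ± 70.3 (adjusted p = 3.23e-07), and no probe set was assigned to Il4i1b. Whether these transcripts reach the Nup62 probe sets was not tested.

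Nup54, the partner of Nup62 in the channel, fell 1.26-fold from 1519 ± 123 to 1208 ± 111 (adjusted p = 0.00145). Nup98, a repeat protein whose gene also encodes the Y complex subunit cut from the same precursor, was 548.2 ± 28.0 and 530.2 ± 30.7 (log2 fold change -0.05, SE 0.0653, adjusted p = 0.588), and its dimmer probe set was called higher, from 259.6 ± 8.75 to 316.4 ± 21.2 (1.21-fold, adjusted p = 0.00782 over probe sets). Rae1, which binds Nup98 and takes part in mRNA export, gave 1181.4, 1170.7, 1175, 1109.6 and 1228.6 against 922.4, 846.6, 842.9, 840.7 and 940.2. All Irf4-/- arrays were lower, by 1.33-fold (adjusted p = 1.33e-05), a call that was lost when a probe set with a mean signal of 24.3 in Irf4+/+ was averaged in (log2 fold change -0.11, adjusted p = 0.317).

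At the cytoplasmic face, where exported cargo is released, 2 of 4 genes fell (50%, beside 24.2% of all genes). Nup88 fell 1.21-fold from 1619 ± 64.7 to 1334 ± 90.5 without overlap (adjusted p = 0.000793), while Nup214, which it holds in place, was 826.2 ± 40.2 and 797.1 ± 45.4 (log2 fold change -0.05, SE 0.0609, adjusted p = 0.526). Aaas, the protein altered in achalasia-addisonism-alacrima syndrome, gave 649.9, 1095.6, 1049, 968.9 and 1343.1 against 593, 662.1, 825.5, 750.7 and 614.4, a fall of 1.45-fold (adjusted p = 0.00612). The Irf4+/+ arrays of Aaas are widely spread, and Irf4+/+ replicate 1 lies among the Irf4-/- values. Ranbp2, the filament protein that binds Ran and attaches SUMO, was 2099 ± 238 and 1914 ± 218 (log2 fold change -0.13, SE 0.085, adjusted p = 0.221). The mean of its probe sets gave 0.27 (adjusted p = 0.0209), the opposite sign, and its dimmest probe set, with 34.2 ± 22.7 in Irf4+/+ and 75.3 ± 23.1 in Irf4-/- samples, was called higher.

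On the nuclear side, both measured basket genes fell without overlap. Over all genes, 24.2% were called lower and 18.6% had every Irf4-/- array below every Irf4+/+ array. Nup50, which helps importin alpha release its cargo, fell 1.37-fold from 1361 ± 127 to 984.6 ± 47.6 (adjusted p = 3.38e-05), and Nup153, which anchors the basket and binds importins, fell 1.26-fold from 2754 ± 399 to 2168 ± 223 (adjusted p = 0.00609). Nup210, a membrane-spanning nucleoporin, fell 1.17-fold from 2352 ± 174 to 2009 ± 118 (adjusted p = 0.00615), and an Irf4-/- array at 2149.2 lay just above the lowest Irf4+/+ array at 2144.3.

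Of the 5 importin alpha adaptors, which recognise classical nuclear localization signals, 1 fell (20%, near the 24.2% of all genes called lower). Kpna2 gave 6894.7, 7342.2, 6975.7, 6664.3 and 6750.8 in Irf4+/+ and 5869.1, 5186.7, 5385.6, 5455.8 and 5774.1 in Irf4-/- samples. Every Irf4-/- array was lower, by 1.25-fold (log2 fold change -0.32, SE 0.0495, adjusted p = 4.24e-05). Kpna1 gave 640.1, 655.4, 624.7, 606.1 and 520.4 against 565.8, 574.9, 626.2, 780.1 and 568.3, with the genotypes mixed (log2 fold change 0.03, SE 0.0918, adjusted p = 0.85). Kpna3, Kpna4 and Kpna6 had log2 fold changes of 0.03 (SE 0.0624), 0.07 (SE 0.0817) and 0.04 (SE 0.0794), with adjusted p of 0.762, 0.493 and 0.745. Within each array, the log2 ratio of Kpna2 to each of the other 4 was lower in Irf4-/- samples, by 0.35 to 0.40 on average, and the ratios did not overlap between genotypes (for Kpna2 over Kpna1, 3.41 to 3.68 in Irf4+/+ and 2.79 to 3.36 in Irf4-/-). The closest was Kpna2 over Kpna4, with 2.16 to 2.24 and 1.58 to 2.16, ranges that meet at the digits given. These ratios were looked at after the single values had been seen and carry no test.

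In the importin beta family, which binds cargo and the pore repeats directly, 4 of 8 genes fell (50%, beside 24.2% of all genes). Ipo4, a carrier of histones, gave 1365.7, 1208.8, 1304.6, 1161 and 1128.8 in Irf4+/+ and 603.4, 579.7, 598.9, 604.1 and 594.5 in Irf4-/- samples. No array of either genotype comes near the other, and the fall of 2.05-fold was the largest of the set (log2 fold change -1.04, SE 0.0621, adjusted p = 8.64e-10). Its further probe set fell 1.64-fold. Kpnb1, the partner of the importin alpha adaptors, fell 1.34-fold from 2436 ± 172 to 1819 ± 184 (adjusted p = 0.000121), and its 3 further probe sets fell by 1.13-fold to 1.63-fold. Ipo5, a carrier of ribosomal proteins and histones, fell 1.40-fold from 3123 ± 147 to 2229 ± 171 (adjusted p = 4.15e-06).

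Ipo7, which also carries ribosomal proteins, and Ipo8 are close paralogues, and their values parted. Ipo7 gave 4488.3, 4711, 4356.9, 4497.3 and 4328.4 against 3077.6, 3180.9, 3115.9, 3307.4 and 3460.7, a fall of 1.39-fold (SE of the log2 value 0.0492, adjusted p = 6.52e-07). Ipo8 gave 429.4, 473.7, 476.4, 462.5 and 451.1 against 447.6, 454, 475.4, 532.1 and 486, with the genotypes mixed (log2 fold change 0.06, SE 0.0677, adjusted p = 0.506). The log2 ratio of Ipo7 to Ipo8 was 3.17 to 3.36 on the Irf4+/+ and 2.62 to 2.81 on the Irf4-/- arrays, a difference given without a test. Ipo9, another histone carrier, was 1068 ± 32 and 1020 ± 47.1 (adjusted p = 0.343), and Ipo11, a carrier of ubiquitin-conjugating enzymes, was 486.7 ± 97.0 and 417.2 ± 118 (adjusted p = 0.245). Tnpo1, which carries RNA-binding proteins, was 1646 ± 125 and 1455 ± 184 on its brightest probe set (log2 fold change -0.18, SE 0.08, adjusted p = 0.0734). A dimmer Tnpo1 probe set fell 1.47-fold from 751.7 ± 65.1 to 508.7 ± 26.1 (adjusted p = 8.59e-06 over probe sets), and Tnpo1 was also called without Irf4+/+ replicate 5 (adjusted p = 0.0295) or Irf4-/- replicate 4 (adjusted p = 0.00602).

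All 5 exportins fell, 3 of them without overlap between the genotypes. Over all genes, 24.2% were called lower and 18.6% had every Irf4-/- array below every Irf4+/+ array. Xpot, which carries mature tRNA to the cytoplasm, gave 2549.8, 2817.2, 2599.7, 2451.6 and 2505.5 in Irf4+/+ and 1453.4, 1361.8, 1479.2, 1623.9 and 1304.9 in Irf4-/- samples. The genotypes are far apart (1.79-fold lower, log2 fold change -0.84, SE 0.0632, adjusted p = 1.47e-08), and its further probe sets fell 2.03-fold and 2.10-fold. Xpo4, the exporter of a translation factor, fell 1.48-fold from 780.7 ± 106 to 527.1 ± 75.7 (adjusted p = 0.000262), and Cse1l, which returns importin alpha to the cytoplasm, fell 1.45-fold.

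The array values of Cse1l were 3618.1, 4255, 3557, 3707 and 3344.3 in Irf4+/+ and 2550.6, 2557.9, 2379.7, 2580.2 and 2629.1 in Irf4-/- samples (adjusted p = 1.79e-06), again without overlap. Xpo1, the main exporter of proteins with leucine-rich signals, fell 1.25-fold from 4458 ± 515 to 3545 ± 155 (adjusted p = 0.00134). A dimmer Xpo1 probe set was 2758 ± 286 and 2741 ± 51.8 (log2 fold change -0.00, adjusted p = 0.977), and the mean of both gave -0.16 (adjusted p = 0.0466). Xpo5, the exporter of microRNA precursors, fell 1.17-fold from 451 ± 54.9 to 382.1 ± 19.3 (adjusted p = 0.0337), and its dimmer probe set 1.65-fold. The call on the brighter Xpo5 probe set was lost without Irf4+/+ replicate 3, 4 or 5 (adjusted p = 0.0912, 0.0504 and 0.0902) and without Irf4-/- replicate 1, 2 or 3 (0.076, 0.0723 and 0.0563).

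The Ran cycle sets the direction of transport, and its 3 measured genes fell, beside 24.2% of all genes. Rcc1, the chromatin-bound exchange factor that makes RanGTP, gave 374.5, 397.3, 471, 367.7 and 458.1 against 200.5, 255.5, 273.6, 237.3 and 263, a fall of 1.66-fold without overlap (log2 fold change -0.73, SE 0.0988, adjusted p = 1.14e-05). Rangap1, which triggers GTP hydrolysis by Ran in the cytoplasm, fell 1.31-fold from 606.2 ± 57.0 to 464.2 ± 89.1 (adjusted p = 0.00775). Without probe sets shared between transcripts a dim set of 42.9 ± 16.9 in Irf4+/+ samples stood for Rangap1, with a log2 fold change of -0.10 (adjusted p = 0.786). Ran itself fell 1.13-fold from 12898 ± 408 to 11388 ± 776 (adjusted p = 0.00912). That probe set is of the kind that shares probes with other transcripts, and the Ran probe set that is not fell 1.55-fold, from 1017 ± 65.0 to 653.5 ± 53.0 (adjusted p = 1.54e-06 over probe sets).

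**Figure D3:**
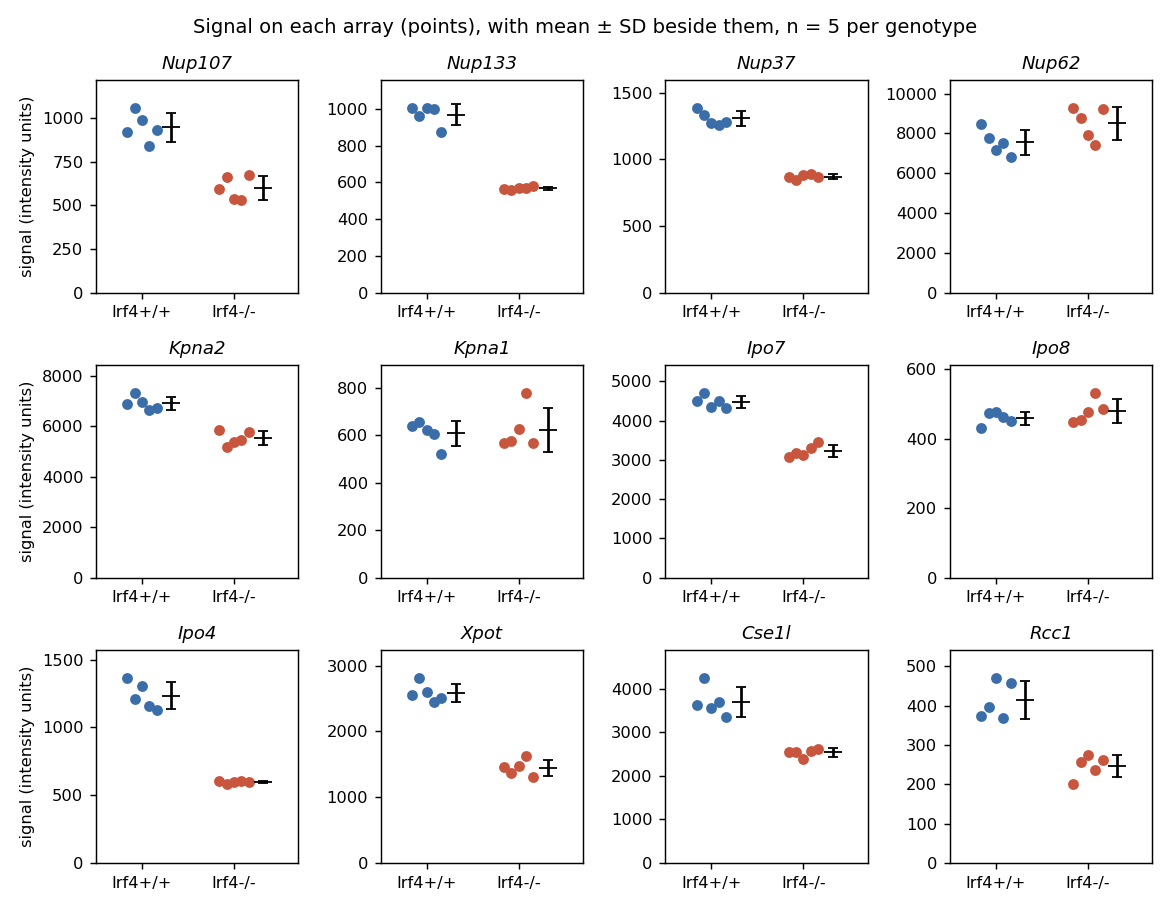
Signal in intensity units (y axis, from 0) of 12 genes on each of the 5 Irf4+/+ (blue) and 5 Irf4-/- (red) arrays, with the mean and SD beside the points. The genotypes are separate for Nup107, Nup133, Nup37, Kpna2, Ipo7, Ipo4, Xpot, Cse1l and Rcc1 and overlap for Nup62, Kpna1 and Ipo8.

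The further probe sets gave a check on the brightest. Of the 67 further probe sets past the filter 31 were called lower and 5 higher, where 21.7% and 21.3% of all 22238 probe sets tested were. For the genes that fell, 30 of 44 further probe sets were called lower, 0 higher and 14 were not called. The 5 called higher were 3 of Nup62 and 1 each of Nup98 and Ranbp2.

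**Figure D4:**
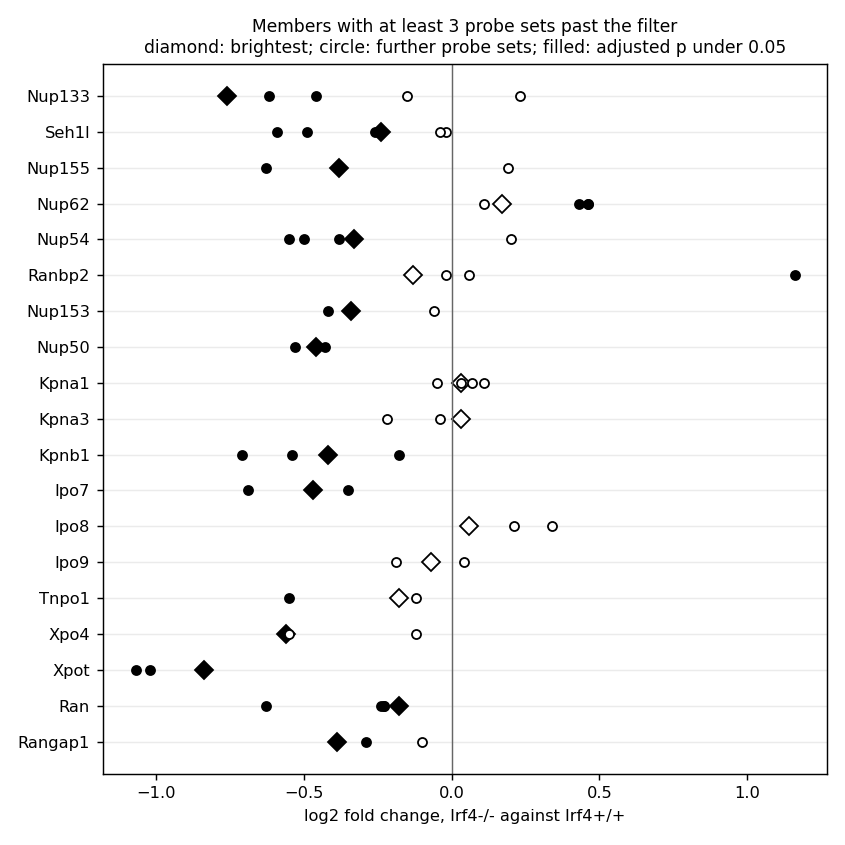
Log2 fold change (x axis) of every probe set past the filter for the 19 genes that have at least 3, with diamonds for the brightest, circles for the others and filled symbols for adjusted p under 0.05 over all probe sets. All 3 sets of Xpot, Ipo7 and Nup50 and all 4 of Kpnb1 are filled and left of 0, and 3 further sets of Nup62 are filled on the right (2 of them at 0.46 overlie each other), as is the dimmest set of Ranbp2.

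Genes around the set were read from lists drawn up by function. Of 7 further nucleoporins tested 6 fell (85.7%) and 0 rose, with a median of -0.37. Over all genes tested, 24.2% were called lower and 23.6% higher. Ndc1, a membrane anchor of the pore, fell 1.64-fold from 675.6 ± 32 to 408.5 ± 18.2 (adjusted p = 9.12e-08), Nupl1 (also called Nup58), the third protein of the channel complex, fell 1.37-fold, and the membrane nucleoporin Pom121 1.27-fold. Ahctf1, which places the Y complex on chromatin, fell 1.29-fold from 1479 ± 131 to 1143 ± 134. Before adjustment, no further nucleoporin had a higher value with p under 0.05.

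Of 11 further receptors and Ran regulators 6 fell (54.5%) and 0 rose, with a median of -0.21. The shares of all genes called lower and higher were 24.2% and 23.6%. Among the 11, 0 had a higher value with an unadjusted p under 0.05. Rangrf, which binds Ran and releases its nucleotide, fell 2.28-fold from 563.3 ± 35.9 to 243.6 ± 29.3 (adjusted p = 1.17e-08), more than any gene of the 46 that was tested. Ranbp1, which helps dissolve export complexes, fell 1.43-fold from 6477 ± 415 to 4544 ± 484. The snurportin gene Snupn, an adaptor for spliceosomal particles, fell 1.26-fold and the exportin gene Xpo7 1.16-fold.

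In the mRNA export list 9 of 19 genes were lower (47.4%) and 1 (Thoc5) was higher (5.26%), with a median of -0.18. Of all genes tested, 24.2% were called lower and 23.6% higher. The call of Thoc5 (adjusted p = 0.0483, up to 0.139 over 24 alternatives) was lost, leaving 0 higher, without Irf4+/+ replicate 3, 4 or 5 or Irf4-/- replicate 1, 2, 3 or 5. Among the lower calls, that of Eny2 (adjusted p = 0.0318) was lost without Irf4+/+ replicate 1 or 5 or Irf4-/- replicate 3 or 4. Nxf1 was not called with the mean of probe sets or without probe sets shared between transcripts. The called genes of this list with the smallest p were the helicase Ddx39a (1.39-fold lower), Thoc3, Thoc6 and the adaptor Alyref (1.28-fold). Thoc3 (1.43-fold) and Thoc6 (1.27-fold) belong to the complex that couples transcription to export. In the SUMO list 4 of 9 fell (44.4%) and 3 rose (33.3%). The proteases Senp3 and Senp6 fell 1.30-fold and 1.42-fold, and the ligases Pias1 and Pias4 rose 1.29-fold and 1.57-fold. Senp1, called lower, lost its call without Irf4+/+ replicate 2 or 4 or Irf4-/- replicate 2. Sae1, also lower, lost its call with quantile normalization and without probe sets shared between transcripts. Senp5, which rose, lost its call with the mean of probe sets. In the nuclear envelope and lamina list 5 of 17 fell (29.4%, near the 24.2% of all genes) and 2 rose (11.8%), with a median of -0.12. Syne1, one of those that rose (adjusted p = 0.0306, up to 0.2 over the alternatives), lost its call, leaving 1, when Irf4-/- replicate 3 or 4 or Irf4+/+ replicate 2, 4 or 5 was left out. Lmnb1, a B-type lamin, fell 1.27-fold, Lemd3 1.30-fold and Tmpo 1.16-fold. With the mean of probe sets Lemd3 and Tmpo were not called (adjusted p = 0.063 and 0.0845). By contrast, Tor1aip1, a partner of torsin in the envelope, rose 1.66-fold from 668.8 ± 30.0 to 1119 ± 57.7 (adjusted p = 2.76e-08).

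**Figure D5:**
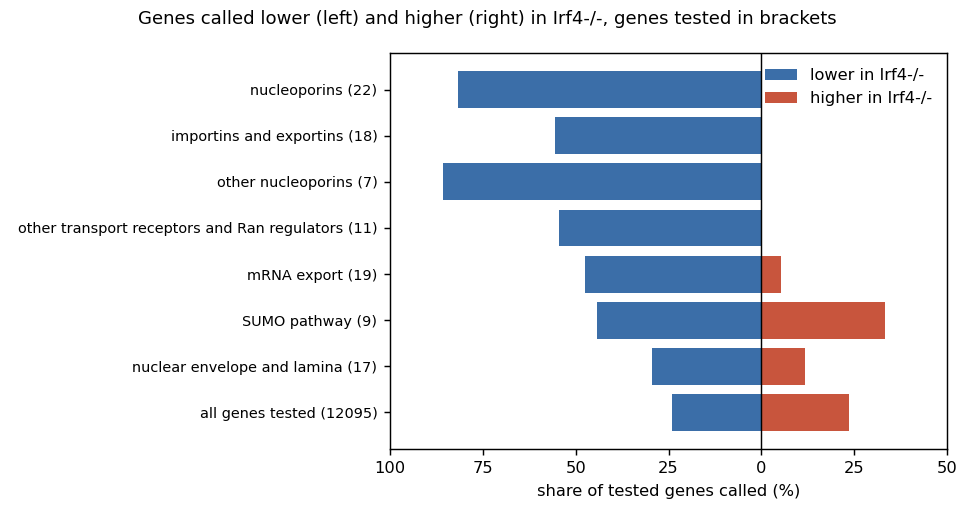
Share of the tested genes of each list (x axis, percent) that was called lower (blue, left) or higher (red, right) in Irf4-/- samples, with the number tested in brackets. Nucleoporins stand at 81.8% lower and the further nucleoporins at 85.7%, beside 24.2% lower and 23.6% higher over all 12095 genes.

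The genes of the set are scattered over the genome: the 46 lie on 16 chromosomes in the RefSeq gene table. No genome build is named for the array, so no positions are given for its probe sets.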

How the data were processed

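Each probe set has a deposited intensity on a linear scale for every array. The submitters' processing notes name MAS5, with no version or scaling target that the sources used here state. Without the lowest and highest 2% of values every array had a mean of 250, so no further scaling was done. Of 45101 probe sets, 34945 have 1 gene symbol in the platform annotation, and symbols were updated by gene ID from RefSeq's gene table (GRCm38.p6). For Nutf2, whose name is also a synonym of pseudogenes there, no probe set was used.

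Intensity was transformed to log2(signal + 7.9), the 20th percentile of all values, and probe sets with a mean under 26.1, the 40th percentile, were left out. A fold change on this scale understates that of dim genes. Each gene was represented by its brightest probe set, judged by the mean of the 10 arrays. A linear model with genotype as its only term was fitted in limma 3.58.1 (lmFit, eBayes with trend, R 4.3.3), with Benjamini-Hochberg adjustment over 12095 genes, or over 22238 probe sets where so stated. Adjusted p-values are from these fits, except where a sentence names a left-out array or another alternative setting. In simulated data with 12095 genes, 50 genes were changed 1.5-fold, 100 genes 2-fold and 50 genes 4-fold. Of these 62%, 87% and 92% were recovered. In the real data 5784 genes were called, far more than were changed in the simulation. The adjustment of p depends on that number, so these rates do not give the recovery in this comparison. The median array signal was 37.2 to 42.7 in Irf4+/+ and 39.9 to 45 in Irf4-/- samples, and the number of arrays limits the precision. Single array measures were compared by an exact permutation test.

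All 46 genes are named whatever their result, with Irf4 and, from each neighbouring list, up to 4 called genes with the smallest p. Atf5, Il4i1b, Sec13 and the paralogue ratios were picked with their values in view. The genes and lists were chosen with earlier results of these data known. Alternatives covered the pseudocount, filter, scaling, variance model, array weights, replicate block, choice of probe set and each array left out.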

Additional observations from a re-analysis of the deposited data

Results flagged for a closer look

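Among the 86 groups of 5 arrays (43 genes in each genotype), 1 held an array set far apart from the others by Dixon's test at its 95% level, where chance gives about 1 in 20. For Nup155, Irf4-/- replicate 4 had a signal of 909.7, while the other 4 Irf4-/- arrays lay between 660.9 and 687.7.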

How the results depend on the processing

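With 24 alternatives the count of genes called lower stayed between 30 and 32 (main value 31), and 28 of the 31 kept their call in all of them. The exceptions were Rae1, Xpo5 and Rangap1, as given above. The number called higher, 0 in the main setting, was 1 with a filter at the 60th percentile, with quantile normalization, with array weights, with the replicate block and without shared probe sets, and 2 with the mean of probe sets. With single arrays left out it ranged from 0 to 1, the 1 being Nup62 without Irf4+/+ replicate 1, Irf4-/- replicate 3 or Irf4-/- replicate 4. The median of the nucleoporins moved from -0.40 to -0.31 with the mean of probe sets, which brings dim probe sets in, and Ranbp2 turned to 0.27. Quantile normalization and median centring moved the median of all genes by at most -0.03.

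Same-numbered arrays did not deviate together (r from -0.0448 to 0.0547), so the numbers were not taken as pairs. With the replicate number as a block, 31 genes were called lower (18 nucleoporins, 10 importins and exportins).

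A filter on probe set means was added after the data were seen. It left the counts of listed genes called as they were, with 12253 genes tested and 5788 called in place of 12095 and 5784. The number of arrays and the dimness of some probe sets, such as those of Rae1 (24.3) and Rangap1 (42.9), limit the calls.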
